A study of Mus musculus with 6 samples.

Results

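Antiviral interferon-stimulated effector genes are the proteins that a cell makes after an interferon has bound its receptor and that act on viruses and other intracellular microbes. A list of 48 such genes was set by name, with earlier results of these data known, and 42 of them were read on the arrays by a probe set that names exactly 1 gene, among 22180 genes in all. Where a gene had several such probe sets, the one with the highest mean over the 6 arrays was used. Of these 42 genes, 31 rose in the arrays labelled Dot1l knockout, 0 fell and 11 did not pass the test. The RNA came from CD8+ T cells of C57BL/6 mice and was read on 6 whole-transcript arrays, of which the labels call 3 wild type and 3 Dot1l knockout. Cells in both groups were taken fresh, with no treatment listed, from peripheral lymph nodes and spleen with a magnetic CD8 T cell isolation kit. The knockout came from a cross of Dot1l flox/flox with CD4-Cre mice, so that Cre acts in T cells from their development in the thymus, when CD4 and CD8 cells share a precursor. The labels do not say whether the wild type mice carried the floxed allele or Cre, how old the mice were, and whether each array stands for a separate animal. The p-values therefore reflect array-to-array spread within a group, part of which may be technical.

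Type I interferons bind a receptor made of Ifnar1 and Ifnar2, and the kinases Jak1 and Tyk2 then activate a complex that includes Stat2 and Irf9 and binds interferon-stimulated response elements in the promoters of these genes. Type II interferon, the product of Ifng, signals through Ifngr1 and Ifngr2 and acts mainly on gamma-activated sequences. Resting T cells keep a low tonic level of many such genes. Dot1l encodes the methyltransferase that marks histone H3 in the body of transcribed genes.

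Promoter sequences are shown here for 9 genes because they hold the response element letters and differ in what the arrays read. RefSeq promoters on GRCm38.p6, from 250 bases before to 50 after each annotated start, matched 40 of the 48 genes by symbol. Both strands were searched for the core of the response element, which is GAAA, any 2 bases, then GAAA. It was present at 1 or more starts of 15 of the 40 genes (37.5%), against 1079 of the 27025 genes of the promoter table (3.99%). Each line below runs 5′ to 3′ on the strand of the gene and ends at the base before the start. Capitals mark matches to this core on either strand, and neighbouring matches may overlap. Ifit3, Lgals9, Igtp and Irgm2 did not pass the test, and the other genes shown rose.
Isg15, chr4:156200819-156200908, minus strand: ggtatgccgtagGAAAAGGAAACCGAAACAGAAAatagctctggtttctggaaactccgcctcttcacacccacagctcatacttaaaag
Ifit1, chr19:34640779-34640888, plus strand: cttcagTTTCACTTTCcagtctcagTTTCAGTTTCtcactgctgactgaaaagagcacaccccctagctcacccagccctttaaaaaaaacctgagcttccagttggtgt
Ifit3, chr19:34583359-34583528, plus strand: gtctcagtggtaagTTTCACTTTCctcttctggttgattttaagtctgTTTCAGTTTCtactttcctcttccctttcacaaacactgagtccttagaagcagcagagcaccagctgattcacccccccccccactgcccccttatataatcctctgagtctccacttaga
Rsad2, chr12:26456453-26456582, minus strand: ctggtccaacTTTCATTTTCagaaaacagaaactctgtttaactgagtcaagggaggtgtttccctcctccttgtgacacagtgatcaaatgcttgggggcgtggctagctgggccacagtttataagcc
Apol9b, chr15:77729022-77729071, plus strand: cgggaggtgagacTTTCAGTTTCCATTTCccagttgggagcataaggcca
Bst2, chr8:71537473-71537622, minus strand: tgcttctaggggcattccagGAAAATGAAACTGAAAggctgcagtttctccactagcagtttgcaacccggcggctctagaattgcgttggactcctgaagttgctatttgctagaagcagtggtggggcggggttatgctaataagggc
Lgals9, chr11:78984925-78984994, minus strand: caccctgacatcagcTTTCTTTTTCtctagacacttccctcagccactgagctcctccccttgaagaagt
Igtp, chr11:58199476-58199555, plus strand: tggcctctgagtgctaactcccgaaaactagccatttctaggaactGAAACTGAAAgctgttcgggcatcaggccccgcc
Irgm2, chr11:58214867-58214976, plus strand: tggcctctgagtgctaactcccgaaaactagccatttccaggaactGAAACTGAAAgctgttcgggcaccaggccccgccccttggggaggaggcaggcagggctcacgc
Isg15 held 3 overlapping matches in 1 run, Ifit1 and Ifit3 held 2 separate matches each, and the neighbouring genes Igtp and Irgm2 shared an identical run of 38 bases upstream of the same 10-letter match. A match is a description of letters and not a shown binding site.

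Values are on the log2 scale as deposited, so that a difference of 1 is a 2-fold change, and are given as the mean ± SD of 3 arrays a group (n = 3 each). Differences are knockout-labelled minus wild type with their standard error (SE) from limma, and a gene passed at a Benjamini-Hochberg adjusted p under 0.05 over all 22180 genes. Dot1l itself, the targeted gene, read 7.46, 6.96 and 7.18 in the wild type arrays and 7.31, 7.26 and 7.33 in the knockout-labelled arrays, and was therefore not lower. Its probe set need not lie in the deleted exon and does not check the labels, so directions refer to arrays as labelled. The T cell and CD8 markers Cd3d (means of 9.65 and 9.58 in wild type and knockout-labelled arrays), Cd3e (11.83 and 11.74), Cd8a (11.12 and 10.95) and Cd8b1 (11.26 and 11.21) did not pass. They belong to a list of 9 measured markers, of which Cd5 fell (-1.01, adjusted p = 0.000376) and 8 did not pass. Array medians lay between 3.69 and 3.78, and the 95th percentile of 1374 olfactory and vomeronasal receptor genes, 3.82, served as a guide to background.

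The 31 genes that rose were 73.8% of the 42, where 4.30% of all genes tested passed as higher, 1.20% as lower and 5.50% in either direction (limma, Benjamini-Hochberg). The median log2 difference of the 42 genes was 0.98, against -0.012 over all genes. In 35 of the 42 every knockout-labelled array read above every wild type array, where this held for 13.7% of all genes. A rise of at least 2-fold that passed was seen for 21 of the 42 genes, where 1.15% of all genes had one. Of the 200 largest positive differences over all genes, 20 belonged to these 42 genes, and 7 lay in the first 50. With the array mean of a block of 5333 unnamed probe sets as a covariate, chosen after the data were seen, 0 of the 42 passed in limma. That block mean lay between 3.65 and 3.91 in wild type and between 4.19 and 4.39 in knockout-labelled arrays, so the block and the genotype cannot be told apart. In that fit 33 of the 42 differences stayed above 0 with a median of 0.62, 16 were higher at an unadjusted p under 0.05 (8.44% of all genes were), and the median SE was 0.37 in place of 0.15. Only 0.00451% of all genes passed as higher there. With the fit and the adjustment run over all 41345 probe sets, 27 of the 42 passed as higher, where 3.41% of all probe sets did, and the calls for Ifi35 (adjusted p = 0.0551), Bst2 (0.0569), Daxx (0.0575) and Irgm1 (0.0738) ended.

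**Figure D1:**
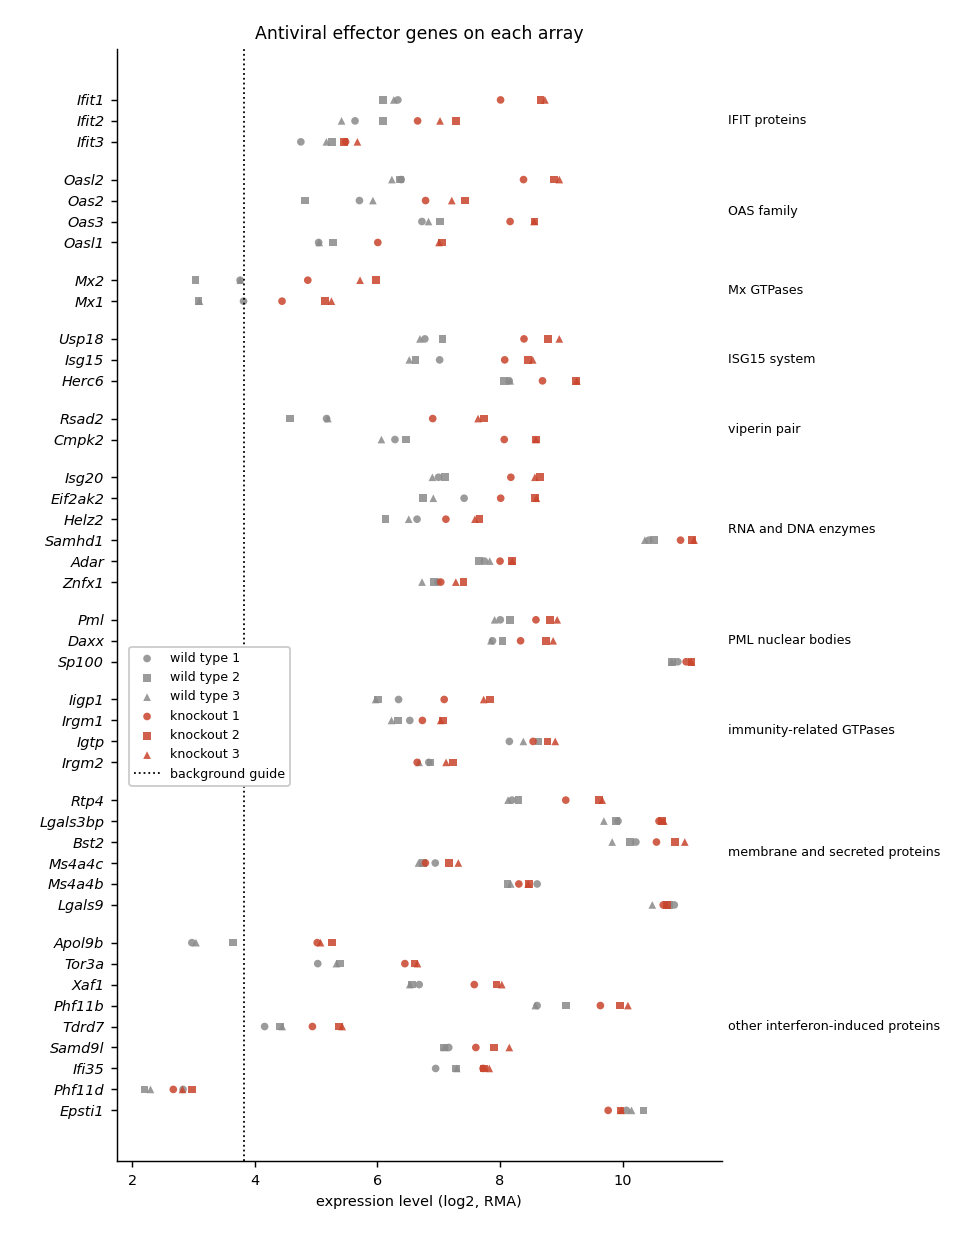
Log2 level (x axis) of each of the 42 genes on each array, grouped by role, with wild type arrays in grey, knockout-labelled arrays in red and a symbol for each replicate number; the dotted line is the background guide of 3.82. In 35 genes the red points lie wholly to the right of the grey ones, and in Epsti1 wholly to the left.

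The IFIT family, which binds foreign RNA and blocks its translation, rose in 2 of 3 members. Ifit1, which recognises RNA caps that lack a host methyl mark, read 6.33, 6.09 and 6.27 in wild type arrays and 8.01, 8.66 and 8.73 in knockout-labelled arrays. The groups did not overlap, and the lowest knockout-labelled array was replicate 1. The difference was 2.24 (SE 0.18, a 4.71-fold rise, adjusted p = 0.000157). Ifit2 rose from 5.72 ± 0.35 to 6.99 ± 0.32 (1.27, SE 0.20, adjusted p = 0.00593). Ifit3, given by array after its values were seen, read 4.75, 5.26 and 5.17 in wild type and 5.48, 5.46 and 5.67 in knockout-labelled arrays. Its groups did not overlap, but its difference of 0.48 (95% interval 0.15 to 0.81, adjusted p = 0.106) did not pass, although its promoter holds 2 response element matches as that of Ifit1 does.

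All 4 measured members of the OAS family rose. Oas2 and Oas3 make the oligoadenylates that switch on the RNA-degrading enzyme RNase L, and Oasl1 and Oasl2 are relatives with ubiquitin-like domains. Oasl2 read 6.39, 6.37 and 6.24 in wild type and 8.38, 8.88 and 8.97 in knockout-labelled arrays. This was the smallest p of the family (difference 2.41, SE 0.15, 5.33-fold, adjusted p = 4.24e-05). Oas3 read 6.73, 7.02 and 6.83 against 8.17, 8.57 and 8.56, a difference of 1.57 (SE 0.14, adjusted p = 0.000257). Oas2 rose by 1.66 (SE 0.27) and Oasl1 by 1.57 (SE 0.25), with adjusted p of 0.00708 and 0.00596. The Oas2 and Oas3 genes are neighbours, as are Oasl1 and Oasl2, with 0 coding genes between the members of each pair in the RefSeq order.

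Both Mx genes rose from below the background guide. They encode dynamin-like GTPases that trap viral particles, and C57BL/6 and many other inbred mice carry defective alleles. Mx2 read 3.76, 3.03 and 3.76 in wild type and 4.86, 5.98 and 5.72 in knockout-labelled arrays, a difference of 2.00 (SE 0.29, adjusted p = 0.00368). Mx1 rose from 3.33 ± 0.42 to 4.95 ± 0.44 (1.62, SE 0.25, adjusted p = 0.00525). Since the wild type level of both was below 3.82, the sizes of these rises are uncertain.

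The ISG15 system attaches a ubiquitin-like protein to other proteins, and all 3 members rose. Isg15 is the modifier, Herc6 the main ligase for it in the mouse, and Usp18 the protease that takes it off again and also damps the type I receptor. Usp18 read 6.77, 7.06 and 6.69 in wild type and 8.39, 8.78 and 8.97 in knockout-labelled arrays (difference 1.87, SE 0.16, 3.66-fold, adjusted p = 0.000228). Herc6 read 8.15, 8.07 and 8.17 against 8.69, 9.24 and 9.25, a smaller rise of 0.93 (SE 0.15, adjusted p = 0.00736) in which knockout-labelled replicate 1 was well below the other two. Isg15 rose from 6.72 ± 0.26 to 8.36 ± 0.25 (1.64, SE 0.16, adjusted p = 0.000478). In each of the 3 genes the groups did not overlap.

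Rsad2 and Cmpk2 lie side by side in the genome and were both among the largest rises of the 42. Rsad2 encodes viperin, which turns CTP into a chain terminator of viral RNA synthesis, and Cmpk2 is a nucleotide kinase that supplies CTP. Cmpk2 read 6.29, 6.47 and 6.07 in wild type and 8.07, 8.58 and 8.59 in knockout-labelled arrays, a 4.41-fold rise (2.14, SE 0.16, adjusted p = 0.000112). Rsad2 rose from 4.98 ± 0.35 to 7.43 ± 0.46 (2.45, SE 0.24, 5.46-fold, adjusted p = 0.000399), the largest difference of the 42. Rsad2 holds 1 response element match before its start, and Cmpk2 holds 0 within the window searched.

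**Figure D2:**
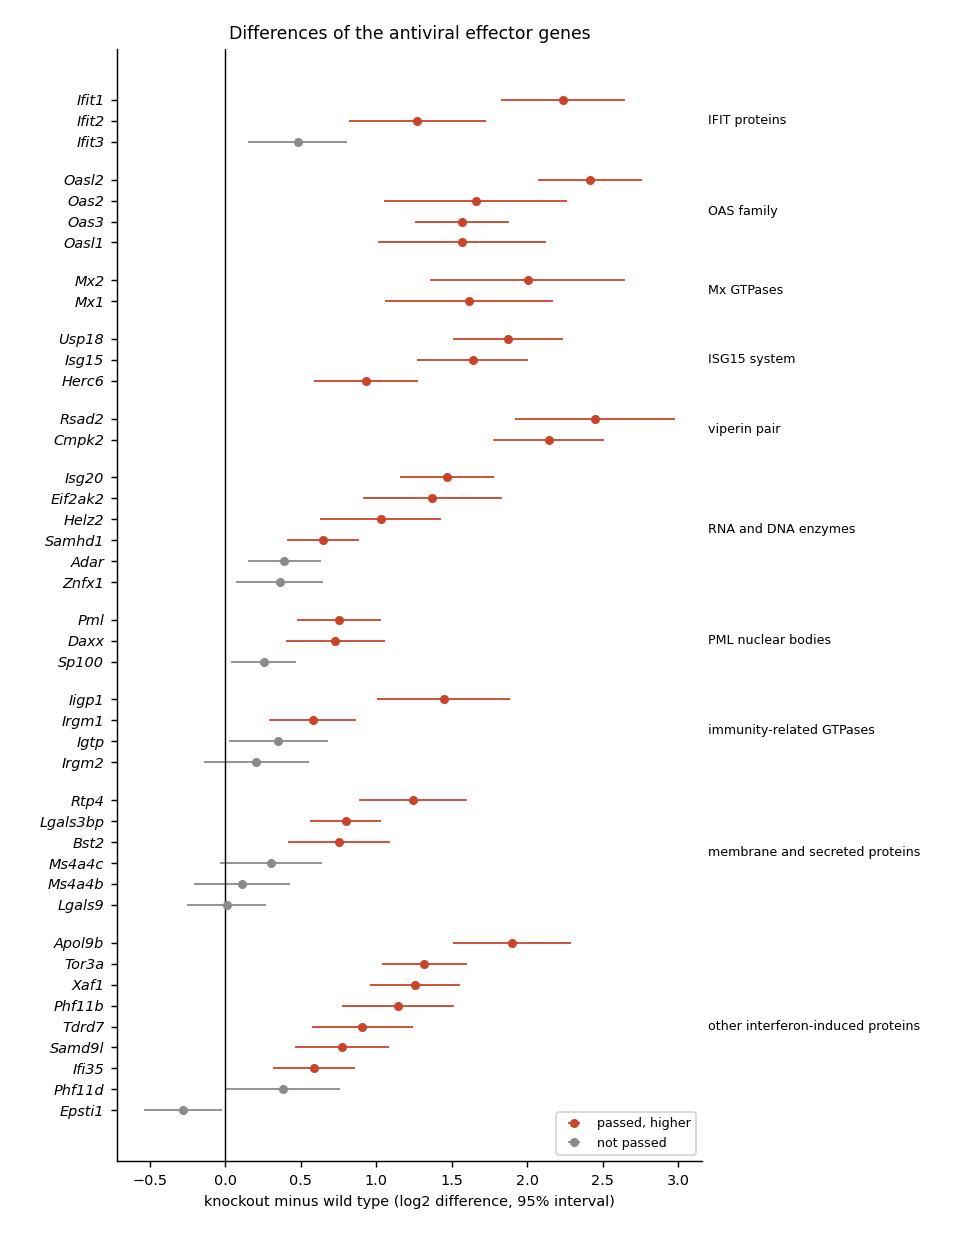
Log2 difference, knockout-labelled minus wild type (x axis), of each gene with its 95% interval from limma, by role; red marks the 31 genes that passed as higher and grey the 11 that did not pass. Differences run from -0.28 for Epsti1 to 2.45 for Rsad2.

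Of 6 enzymes that act on RNA, DNA or nucleotides, 4 rose. Isg20, an exonuclease of single-stranded RNA, read 6.997, 7.10 and 6.90 in wild type and 8.18, 8.65 and 8.57 in knockout-labelled arrays (1.47, SE 0.14, adjusted p = 0.000363). Eif2ak2, which encodes the kinase PKR that stops translation on sensing double-stranded RNA, rose by 1.37 (SE 0.20) and the helicase gene Helz2 by 1.03 (SE 0.18). Helz2 did not pass without knockout replicate 3 (adjusted p = 0.0523). Samhd1, which hydrolyses the nucleotides that viruses need for DNA synthesis, read 10.43, 10.51 and 10.36 against 10.95, 11.13 and 11.17. That was a rise of 0.64 (SE 0.11, adjusted p = 0.00753) with groups that did not overlap. The RNA editing enzyme gene Adar differed by 0.39 (95% interval 0.15 to 0.63, adjusted p = 0.0753) and the RNA helicase gene Znfx1 by 0.36 (0.074 to 0.65, adjusted p = 0.163), and neither passed. Adar passed with trend and robust fitting (adjusted p = 0.0275) and among genes above the median level (0.0366).

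PML nuclear bodies are nuclear compartments that repress incoming viral genomes. Pml, their scaffold, read 8.01, 8.16 and 7.91 in wild type and 8.59, 8.81 and 8.93 in knockout-labelled arrays (0.75, SE 0.12, adjusted p = 0.00736). Daxx, a histone chaperone that resides there, rose by 0.73 (SE 0.15, adjusted p = 0.0194). The call for Daxx ended when wild type replicate 1 (adjusted p = 0.0554) or 3 (0.0741) or knockout replicate 2 (0.0824) or 3 (0.0872) was left out. Sp100, another resident, read 10.90, 10.81 and 10.80 against 11.04, 11.12 and 11.12. These groups did not overlap, but the difference of 0.25 (95% interval 0.037 to 0.47, adjusted p = 0.197) did not pass. It passed with trend and robust fitting (adjusted p = 0.0228). The other 3 probe sets that name Sp100 alone differed by 1.16, 0.21 and 0.13 and none of them passed over all probe sets (adjusted p = 0.243, 0.624 and 0.57).

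The immunity-related GTPases, which act on the vacuoles of intracellular microbes and are classically induced by type II interferon, were uneven. Iigp1 read 6.35, 6.01 and 5.97 in wild type and 7.09, 7.83 and 7.73 in knockout-labelled arrays, a 2.72-fold rise (1.45, SE 0.19, adjusted p = 0.00266). Igtp, which restrains the other GTPases on host membranes, read 8.15, 8.63 and 8.38 against 8.54, 8.78 and 8.90, so that its groups overlapped (0.35, 95% interval 0.023 to 0.68, adjusted p = 0.243). Its neighbour Irgm2 differed by 0.21 (-0.14 to 0.55, adjusted p = 0.553). Irgm1, another such regulator, rose by 0.58 (SE 0.13, adjusted p = 0.0317). The call for Irgm1 ended when wild type replicate 2 (adjusted p = 0.0643) or 3 (0.111) or knockout replicate 2 (0.13) or 3 (0.134) was left out, with the replicate block (0.0764) and after another quantile normalization (0.0726). All 3 of these regulators hold a response element match, and Igtp and Irgm2 also hold a gamma-activated sequence match just upstream of it.

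Of 6 membrane and secreted proteins, 3 rose. Rtp4, a chaperone of surface receptors, read 8.20, 8.30 and 8.13 in wild type and 9.07, 9.62 and 9.67 in knockout-labelled arrays (1.24, SE 0.16, adjusted p = 0.00196). Lgals3bp, a secreted glycoprotein that binds galectins, had means of 9.84 ± 0.13 and 10.64 ± 0.039 and rose by 0.80 (SE 0.10, adjusted p = 0.00227). A second probe set for it differed by 0.50 (adjusted p = 0.179 over all probe sets). Bst2, or tetherin, which holds budding virions on the cell surface, rose by 0.75 (SE 0.15, adjusted p = 0.0189). The call for Bst2 ended when wild type replicate 3 (adjusted p = 0.0673) or knockout replicate 2 (0.0756) or 3 (0.0863) was left out. Lgals9, a galectin, read 10.84, 10.75 and 10.48 in wild type and 10.66, 10.73 and 10.71 in knockout-labelled arrays, which lie within the wild type range. Its difference was 0.0083 (95% interval -0.25 to 0.27, adjusted p = 0.984), with 2 response element matches in its window. The membrane-spanning proteins Ms4a4b (0.11, interval -0.21 to 0.43) and Ms4a4c (0.30, interval -0.032 to 0.64) did not pass either (adjusted p = 0.749 and 0.333), and their groups overlapped.

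Of the remaining 9 interferon-induced proteins, 7 rose. Apol9b, an apolipoprotein L relative, read 2.97, 3.64 and 3.04 in wild type and 5.02, 5.26 and 5.07 in knockout-labelled arrays, with every wild type array below the background guide. It passed (1.90, SE 0.17, adjusted p = 0.000306), but the size of this rise is uncertain, as for the Mx genes. Tor3a, a torsin ATPase, rose by 1.32 (SE 0.13), Xaf1, which promotes apoptosis, by 1.26 (SE 0.13) and the PHD finger gene Phf11b by 1.14 (SE 0.17). The adjusted p of these 3 was 0.000376, 0.000658 and 0.00385. Phf11d, next to Phf11b and similar to it, read below the guide in both groups (2.44 ± 0.34 and 2.82 ± 0.15) and did not pass (adjusted p = 0.277, or 0.0433 without wild type replicate 1). Tdrd7, a tudor domain protein, rose by 0.91 (SE 0.15) and Samd9l, which represses translation, by 0.77 (SE 0.14, adjusted p = 0.012, or 0.0511 without knockout replicate 2). Ifi35 rose by 0.59 (SE 0.12, adjusted p = 0.0214), but not without knockout replicate 1, 2 or 3 (adjusted p = 0.0677, 0.074 and 0.101) or with the mean of its probe sets (0.35, adjusted p = 0.0974). Epsti1 read 10.06, 10.34 and 10.15 in wild type and 9.77, 9.97 and 9.98 in knockout-labelled arrays. It was the 1 gene of the 42 with all knockout-labelled arrays below all wild type arrays, which held for 9.78% of all genes. Its difference was also the 1 below 0 (-0.28, 95% interval -0.54 to -0.018, adjusted p = 0.242), and it did not pass.

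Within the knockout-labelled group the arrays differed. Replicate 1 was the lowest of the 3 knockout-labelled arrays in 41 of the 42 genes (97.6%), a count made after the values were seen. Ifit3 was the exception. Over all genes replicate 1 was the lowest in 35.8%, and over the 954 genes that passed as higher in 372. The median distance of the 42 genes from the wild type mean was 0.72 in replicate 1, 1.16 in replicate 2 and 1.14 in replicate 3, while over the 954 genes it was 0.72, 0.72 and 0.75. The block of unnamed probe sets was also lowest in replicate 1 among the knockout-labelled arrays, at 4.19 against 4.39 and 4.33, and its part in this pattern was not tested. Without knockout replicate 1, 30 of the 42 genes passed as higher with a median difference of 1.16, where 2.71% of all genes passed as higher. Among the wild type arrays, replicate 1, 2 and 3 were the lowest in 9, 12 and 21 of the 42 genes.

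**Figure D3:**
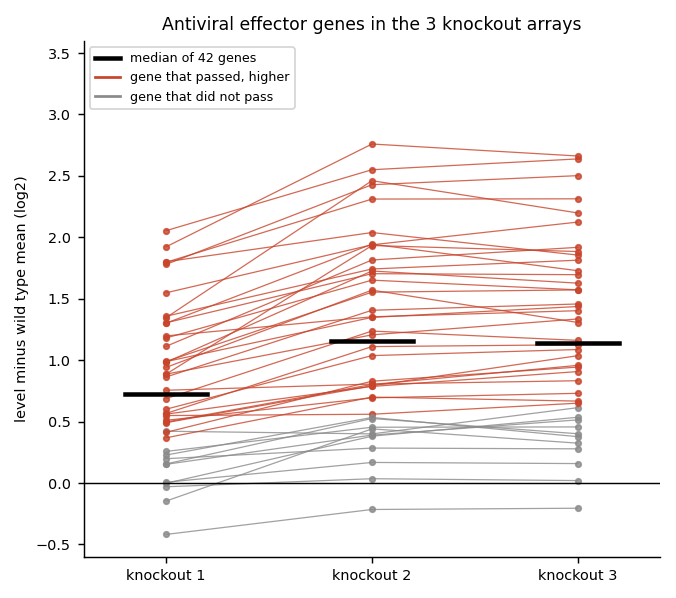
Level of each of the 42 genes in each knockout-labelled array minus its wild type mean (y axis, log2), 1 line a gene, with red for the 31 genes that passed and grey for the 11 that did not; black bars are the medians of the 42 genes, 0.72, 1.16 and 1.14. Replicates have no order, and the lines only join the values of a gene; replicate 1 is the lowest in 41 genes.

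Motif matches were found both in genes that rose and in genes that did not pass. A response element match was present in 10 of 24 genes that rose and have a promoter sequence (41.7%) and in 4 of 11 that did not pass (36.4%). The median difference was 1.03 in the 14 measured genes with a match and 0.75 in the 21 without one. Oasl2, Cmpk2 and Isg20 are among the genes that rose with 0 response element matches in the window. The gamma-activated sequence, which is TTC, any 3 bases, then GAA and reads the same on both strands, was present in 10 of the 40 genes, against 9.55% of genes in the table. By role, 3 of 3 immunity-related GTPases with a promoter held a response element match and 2 of them a gamma-activated sequence match. Among the enzymes of RNA, DNA and nucleotides 1 of 6 held the former and 4 of 6 the latter. In Bst2 the matches of both motifs overlap. These shares are descriptions without a test, and a window of 300 bases leaves out sites farther away.

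**Figure D4:**
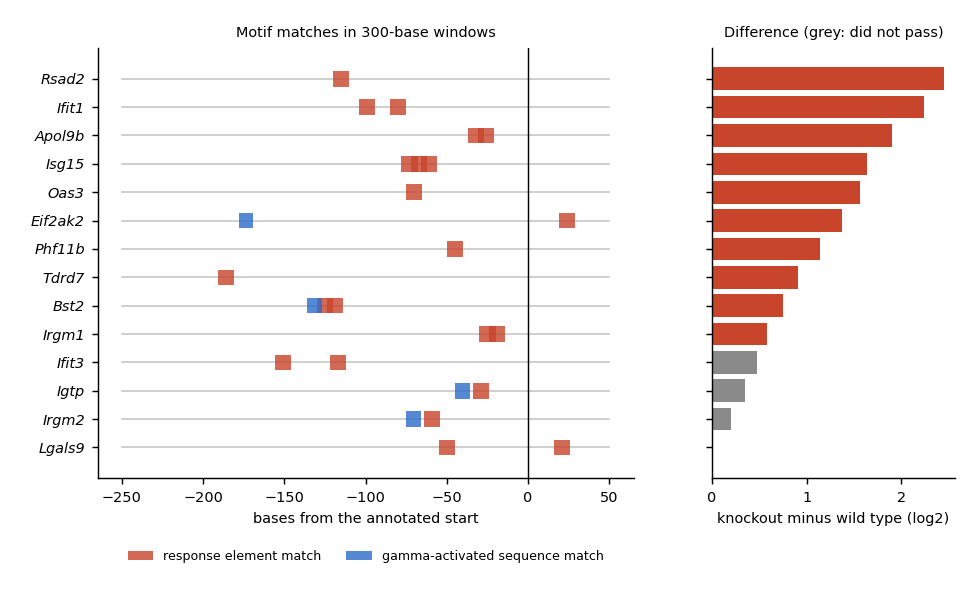
Left, position of each response element match (red) and each gamma-activated sequence match (blue) in bases from the annotated start, for the 14 measured genes with a response element match, at 1 start a gene; right, the log2 difference of the same gene, knockout-labelled minus wild type, in red where it passed. Response element matches begin between positions -191 and 19, and the 4 genes in the lowest rows did not pass.

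Other genes of the interferon pathway moved less evenly. Whether they act before or after the effectors in these cells was not tested. Of 56 other interferon pathway genes, 52 were measured, of which 14 rose and 2 fell, with a median difference of 0.13 (5.50% of all genes passed in either direction). Of the 19 measured interferon genes themselves, 11 read below the guide in wild type arrays and 18 did not pass. Above the guide, Ifnl2 (5.61), Ifna4 (5.39) and Ifna7 (5.03) had wild type means above that of Ifng (4.96) and did not pass. Ifnb1 read 2.18, 2.46 and 2.25 in wild type and 2.29, 2.08 and 2.12 in knockout-labelled arrays (-0.13, 95% interval -0.39 to 0.13). No measured Ifna gene passed, nor did Ifnab. Ifng, the type II interferon that activated CD8 T cells secrete, read 4.87, 4.96 and 5.05 against 5.93, 5.74 and 5.66. It rose by 0.82 (SE 0.11, adjusted p = 0.00277), and replicate 1, the lowest knockout-labelled array for the effectors, was here the highest.

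Receptor genes differed in both directions. Ifnar1 read 9.19, 9.05 and 9.11 in wild type and 9.12, 9.09 and 9.10 in knockout-labelled arrays (-0.019, 95% interval -0.23 to 0.20). Ifnar2, its partner, rose by 0.45 (SE 0.11, adjusted p = 0.0429), a call that ended without any single array except wild type replicate 2, with the replicate block (0.105) and after either rescaling (0.0915 and 0.0614). Il10rb, shared by interleukin-10 and type III interferon receptors, rose by 0.68 (SE 0.10). Ifngr2, the signalling chain of the type II receptor, read 9.06, 9.17 and 9.20 against 7.59, 7.90 and 8.14, and fell by 1.27 (SE 0.14, adjusted p = 0.00096). Ifngr1, the chain that binds the ligand, differed by -0.022 (95% interval -0.27 to 0.23).

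Among the signal carriers, Jak2 rose by 0.55 (SE 0.10, adjusted p = 0.0154, or 0.0748 and 0.0798 without knockout replicate 2 or 3). Jak1 (0.20), Tyk2 (0.18) and Stat2 (0.23, 95% interval -0.071 to 0.54) did not pass. Irf7, the factor that amplifies type I responses, rose by 1.99 (SE 0.12, adjusted p = 3.74e-05), while Irf9, the DNA-binding partner of Stat2, differed by 0.14 (-0.065 to 0.35). Irf8 rose by 0.80 (SE 0.15, adjusted p = 0.0162). The call for Irf8 ended when wild type replicate 1 (0.0508), knockout replicate 1 (0.0595) or knockout replicate 3 (0.0809) was left out, after another quantile normalization (0.0567) and with the mean of its probe sets (0.45, 0.0962). The feedback inhibitor genes Socs1 (0.95, SE 0.17) and Socs3 (0.57, SE 0.10) rose, with the call for Socs1 ending when wild type replicate 3 (0.0511) or knockout replicate 1 (0.0534) was left out or after another quantile normalization (0.0627).

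Of 13 nucleic acid sensors and adaptors, 6 rose and 1 fell. Tlr3, an endosomal receptor for double-stranded RNA, read 3.50, 3.33 and 3.15 in wild type, below the guide, and 4.94, 5.77 and 5.78 in knockout-labelled arrays (2.17, SE 0.22, a size that is uncertain for this reason). Ifih1, the cytosolic sensor MDA5, rose by 1.90 (SE 0.15), Tlr7, an endosomal receptor for single-stranded RNA, by 1.51 (SE 0.21) and Dhx58, which modulates cytosolic RNA sensing, by 1.37 (SE 0.20). The nucleic acid sensor gene Zbp1 rose by 1.10 (SE 0.12) and Ddx58, which encodes RIG-I, by 0.88 (SE 0.11). In each of these 6 genes knockout-labelled replicate 1 was the lowest of its group. Over the 52 pathway genes it was the lowest in 22 (42.3%), and over all genes in 35.8%. Myd88, the adaptor of Tlr7 and of Tlr9, read 8.92, 8.77 and 8.57 against 8.03, 7.76 and 7.90, and fell by 0.86 (SE 0.12, adjusted p = 0.00394).

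**Figure D5:**
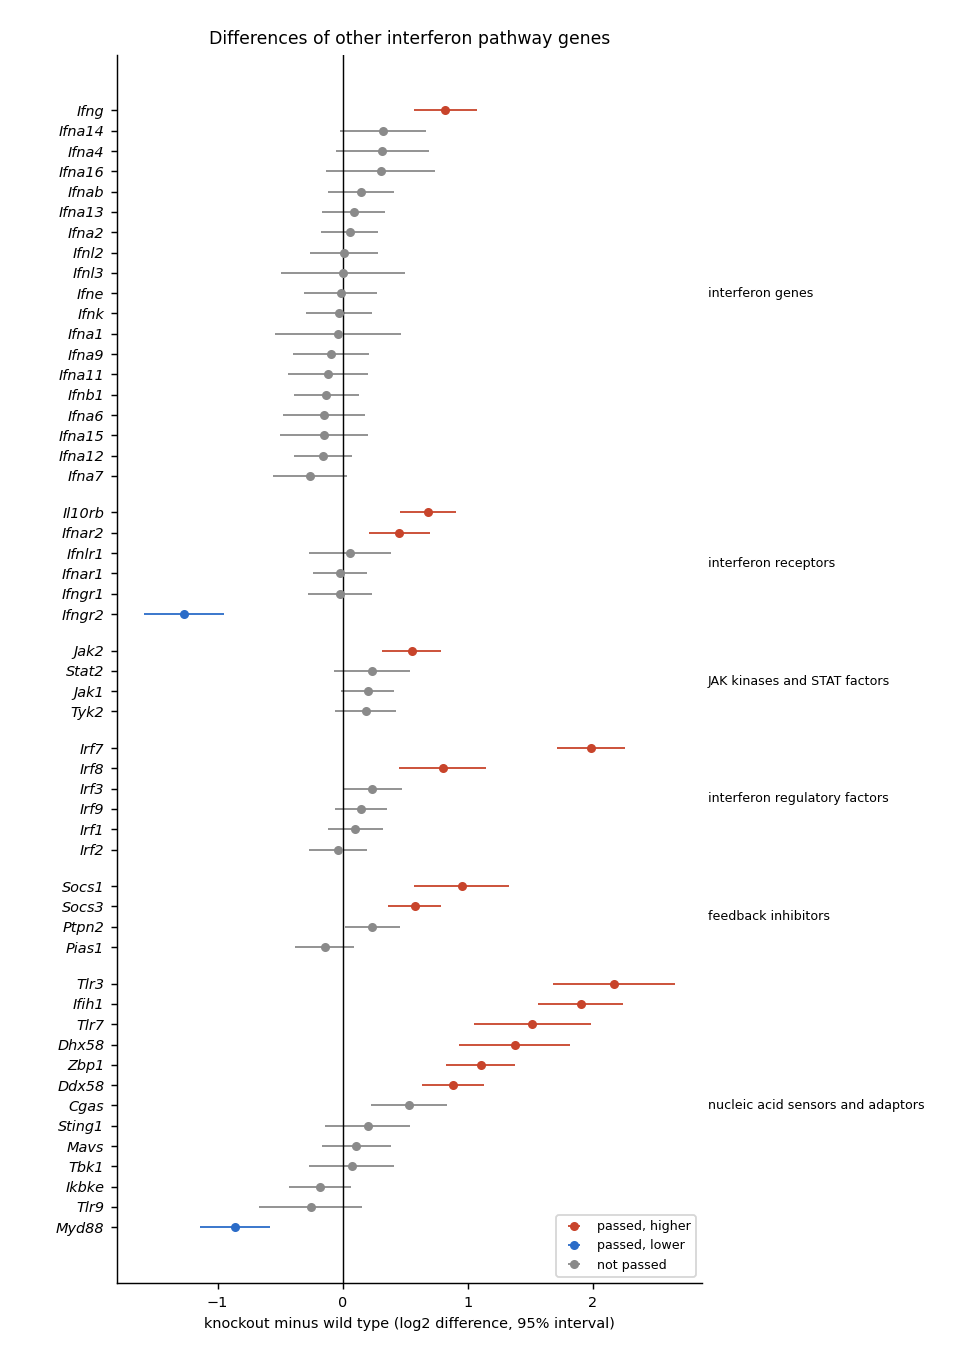
Log2 difference, knockout-labelled minus wild type (x axis), of 52 other interferon pathway genes with 95% intervals from limma, by role; red marks 14 genes that passed as higher, blue the 2 that passed as lower and grey the rest. Irf7 stands at 1.99 and Ifngr2 at -1.27, and Tlr3, at 2.17, read below the background guide in all wild type arrays, so that its size is uncertain.

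Markers of other cells that also use these genes were read on the same arrays, where more cells of a type and more RNA per cell cannot be told apart. For the counts below, 4.30% of all genes tested passed as higher and 1.20% as lower. Of 9 plasmacytoid dendritic cell markers 3 rose, which were Bst2, itself one of the effectors, Tcf4 (0.77) and Ly6d (0.82). The summed linear level of that list was 1164 to 1467 in wild type and 1751 to 2362 in knockout-labelled arrays, most of it from Bst2. Without Bst2 the sum was 253 to 310 against 248 to 292, so that the groups overlapped. Pacsin1 read lower on every knockout-labelled array (-0.47) but did not pass. The defining marker Siglech read 3.28 ± 0.27 and 3.26 ± 0.24, below the guide in both groups. Of 9 monocyte and macrophage markers 3 rose, Ly6c2 (0.71), which CD8 T cells also express, Itgam (0.60) and Mpeg1 (1.32, from below the guide), with a summed level of 2166 to 2512 against 3604 to 3937. Ly6c2 made up most of that sum, which without it was 131 to 160 against 161 to 184. The defining Csf1r (4.48 and 4.08), Lyz2 (4.53 and 4.42) and Adgre1 (3.76 and 3.16, below the guide, with every knockout-labelled array lower) did not pass. Of 9 B cell markers 3 rose, Ms4a1 (1.13), Cd79a (0.86) and Cd22 (1.29), with a summed level of 196 to 234 against 282 to 338. Ms4a1 read below the guide in all wild type arrays, so the size of its rise is uncertain. The defining Pax5 (3.53 and 3.34), with Blnk, Ebf1 and Vpreb3, had means below the guide in both groups and did not pass. Of 7 conventional dendritic cell markers 1 rose, Itgax (1.14), with a summed level of 304 to 411 against 299 to 333 and Flt3 below the guide. Cd209a made up most of that sum, and read lower on every knockout-labelled array (-0.37) but did not pass. Without Cd209a the sum was 72 to 82 against 90 to 108, so that the groups did not overlap. Of 7 neutrophil markers 0 passed, with S100a8 and S100a9 below the guide in both groups and a summed level of 63 to 69 against 60 to 71. Of 6 NK cell markers 3 rose, Eomes (1.27), Nkg7 (0.64) and Gzma (2.08), all of which effector CD8 T cells also use, with a summed level of 1557 to 1867 against 2922 to 3084, or 413 to 449 against 1083 to 1109 without Nkg7. The defining NK marker Ncr1 read 4.93 and 5.37, higher on every knockout-labelled array (0.44, adjusted p = 0.0719), but did not pass. Klrb1c had means of 3.25, below the guide, and 4.15, with groups that overlapped, and did not pass (0.90, adjusted p = 0.151). All 6 NK differences were above 0, as were 10476 of the 22180 over all genes. In 4 of the 6 every knockout-labelled array read above every wild type array, which held for 13.7% of all genes. Of 7 CD4 T cell markers Il2ra rose (0.69) and Cd40lg (-0.88) and Cxcr5 (-0.98) fell. Cd4 was 3.79 and 3.86 and Foxp3 was 5.09 and 4.83, and neither passed. The summed level was 470 to 547 against 352 to 371, or 240 to 263 against 171 to 185 without Ctla4. Ctla4, the gene with the highest level in that list, read lower on every knockout-labelled array (-0.54) but did not pass. Of 9 CD8 T cell markers Cd5 fell (-1.01) and 8 did not pass, with a summed level of 14686 to 15832 against 14295 to 14805. The part of these cells in the rise of the effector genes was not tested.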

How the data were processed

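The deposited table holds log2 expression values of 41345 probe sets. Per the submitters' processing notes, the tools were RMA and R 3.1.1. RMA as a rule corrects background, applies quantile normalization and summarises each probe set, which compresses differences of dim genes. Its settings and the genome build were not given in the sources used here. In the platform annotation 23521 probe sets named 1 symbol, 1814 several and 16010 none. Of 22180 genes with a probe set of their own, 1082 had more than 1, and the one with the highest mean was used.

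Groups come from the genotype labels. Genes were tested by limma 3.58.1 under R 4.3.3, using lmFit and eBayes with no covariate and Benjamini-Hochberg adjustment over all genes. The script was tested on simulated data. The number of arrays limits the precision. Alternatives were the replicate block, leaving out each array, rescaling, level filters, trend with robust fitting, the mean of probe sets, a threshold of 0.01 and, added later, a covariate and a fit over all probe sets. Same-numbered arrays did not deviate together (correlations of -0.074, -0.16 and -0.074 over genes). With 3 arrays a group this cannot settle whether the numbers pair them, and the labels do not say.

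The effector genes and lists were chosen with earlier results of these data known. Every measured effector may be named. Values by array are given for the smallest p and the highest mean of each role. Pathway genes are named where they passed or belong to 7 set genes, and markers where they passed or are among the first 2 of a list, with exceptions chosen after their values were seen.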

Additional observations from a re-analysis of the deposited data

Results flagged for a closer look

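Of the 6 effector genes without a probe set of their own, 5 share one with another gene, and these probe sets lay outside the tests. In each of the 5 every knockout-labelled array read above every wild type array, which held for 13.7% of the 22180 genes tested. The share over all probe sets was not counted. The values below are from limma over all 41345 probe sets, and the gene behind each signal cannot be told apart. The probe set of Oas1a and Oas1g read 2.99, 2.77 and 2.37 in wild type, below the background guide, and 4.05, 4.65 and 4.55 in knockout-labelled arrays (1.71, SE 0.22, adjusted p = 0.0119). The probe set of Ifi27l2a and Ifi27l2b read 6.51, 7.37 and 6.98 against 8.17, 8.32 and 8.30 (1.31, SE 0.21, adjusted p = 0.0252). That of Ifi47 and Olfr56 read 5.15, 5.17 and 5.16 against 5.57, 5.62 and 5.72 (0.48, SE 0.093, adjusted p = 0.0423). The probe sets of Dtx3l with Parp9 (0.61, SE 0.13, adjusted p = 0.0542) and of Trex1 with Atrip (0.53, SE 0.13, adjusted p = 0.0875) did not pass. In the same fit 27 of the 31 effector genes that rose passed, and Ifi35, Bst2, Daxx and Irgm1 did not.

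A block of 5333 unnamed probe sets, whose identifiers precede those of every named probe set, read higher in knockout-labelled arrays at a median log2 difference of 0.43. No gene name is given for them here.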

How the results depend on the processing

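Of the 31 effector genes that rose, 25 passed whichever array was left out, and 30 after both rescalings. The same counts were not made for the 954 genes that passed as higher, so no comparison with them is given. Without an array the count lay between 26 and 31 with 0 lower, and the median difference between 0.89 and 1.16. With the replicate block 30 of 42 passed as higher, and Irgm1 was the 1 effector call it ended. For other pathway genes the counts without an array were 11 to 14 higher and 2 lower. Over all genes, 954 higher and 266 lower became 494 to 929 and 121 to 378 without an array. Leaving out knockout replicate 1 gave 600 and 145, replicate 2 gave 571 and 125, replicate 3 gave 494 and 121, and leaving out wild type replicate 3 gave 621 and 159. The counts were 439 and 95 at an adjusted p under 0.01, and 625 and 470 after another quantile normalization. That normalization moved the median of all genes to -0.058 and median centring to -0.062. The fit over all probe sets, also chosen after the data were seen, gave 607 and 144 over all genes, 27 and 0 for effectors and 12 and 2 for the pathway. With the unnamed probe set covariate, added after seeing the data, the numbers were 1 and 1 over all genes, 0 for effectors (median 0.62) and 0 and 0 for the pathway. The sign then turned for Mx2 (-0.012), Lgals9 (-0.025), Helz2 (-0.13), Oas2 (-0.21), Irgm2 (-0.23), Ms4a4c (-0.27), Phf11d (-0.52), Ms4a4b (-0.52), Stat2 (-0.29) and Ifnb1 (0.42). The sign of Lgals9 also turned with median centring (-0.042) and without knockout replicate 2 (-0.0051) or wild type replicate 3 (-0.096), with a range of -0.096 to 0.083 without an array. That of Ifnar1 turned without wild type replicate 1, with a range of -0.051 to 0.017. The cause of these changes was not tested.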
